A study of Mus musculus with 13 samples.

Results

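The 10 genes described here encode the MHC class I molecule and the machinery that loads it with peptide: B2m, H2-K1, H2-D1, H2-T23, Tap1, Tap2, Tapbp, Psmb8, Psmb9 and Nlrc5. They were chosen by gene symbol in the deposited annotation, as 10 of 55401 named genes, and all 10 passed the filter on low counts, with 14985 genes tested in all. Bulk RNA-seq was performed on 1 brain hemisphere per library of male wild-type C57BL/6J mice, the strain being given in the study's methods. CPZ mice (4 libraries) were fed 0.3% cuprizone, a copper chelator that kills oligodendrocytes, for 4 weeks, and RCV mice (4 libraries) had the same diet followed by 2 weeks of control diet. The treatment label of these 4 libraries reads Recovery, while their titles begin with Veh, and the treatment label was used. CTL mice (5 libraries) received control diet for 6 weeks. Mice were 6 to 8 weeks old by the sample labels, whereas the study's methods give an age of about 10 weeks. CPZ brains were taken at week 4 and CTL and RCV brains at week 6, so that the CPZ diet and the earlier collection cannot be told apart in these comparisons. The sample labels count 1 animal fewer in each group than there are libraries, as do the study's methods. The legend of the study's first figure counts 13 samples with bulk RNA-seq, 5 CTL, 4 CPZ and 4 RCV. All 13 were therefore used as separate samples. No 2 libraries of a group agreed within counting error, which cannot tell 2 libraries of 1 animal from those of 2 animals.

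A class I molecule is a heavy chain (H2-K1, H2-D1 or the nonclassical H2-T23, which forms Qa-1) bound to β2-microglobulin, the product of B2m, and a short peptide. The peptides are cut from cytosolic proteins by the proteasome, in which the interferon-inducible subunits Psmb8, Psmb9 and Psmb10 can take the place of Psmb5, Psmb6 and Psmb7, and they are carried into the endoplasmic reticulum by the Tap1-Tap2 transporter and loaded with the help of tapasin, the product of Tapbp. Nlrc5 is a transactivator of MHC class I genes. In the healthy brain class I is low on neurons and most glia and is found mainly on endothelial cells and microglia.

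In the mm10 annotation (GENCODE), 8 of the 10 genes lie on chromosome 17 within 2116957 bases, and Psmb9 (minus strand, chr17:34181987-34187764), Tap1 (plus strand, chr17:34187553-34197225), Psmb8 (plus strand, chr17:34197721-34201454) and Tap2 (plus strand, chr17:34203527-34216321) are neighbours in 34335 bases. Tapbp lies at chr17:33915899-33929292 (plus strand), H2-K1 at chr17:33996017-34000347 (minus strand), H2-D1 at chr17:35262730-35267499 (plus strand) and H2-T23 at chr17:36029773-36032855 (minus strand). B2m is at chr2:122147686-122153083 and Nlrc5 at chr8:94434356-94527272, both on the plus strand. Psmb9 and Tap1 are read away from each other, and their annotated exons overlap within 212 bases. Antisense exons also overlap Tap2, Psmb8, Tapbp and Nlrc5, and exons of Zbtb22 overlap Tapbp on the same strand. Whether reads were counted by strand is not given in the sources used here, so reads of such partners may not be separated. The estimated counts of H2-K1, H2-D1 and H2-T23 were not whole (by more than 0.005) in 13 of 13 libraries, as happens where reads are divided between near-identical genes, and the split between these heavy chains is therefore uncertain. Those of B2m, Tapbp, Psmb8, Psmb9 and Nlrc5 were whole in every library.

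Promoter sequences (RefSeq, GRCm38.p6, from 250 bases before to 50 bases after the annotated start) were at hand for 8 of the 10 genes, all but Tap2 and Nlrc5. The stretch before the start is shown for the B2m light chain and for the 2 classical heavy chains, because these 3 genes were the ones called in both CPZ and RCV, and for the Tap1 and Psmb9 start sites, because the 2 genes share it. Capitals mark matches on either strand to a kappa B site, an ISRE core (GAAA, 2 free bases, GAAA, or the shorter GAA, 2 free bases, GAAA, which was added after the sequences were seen), a GAS element (TTCNNNGAA), a CCAAT box (CCAAT) or a CRE core (TGACG). The B2m stretch is chr2:122147437-122147686 on the plus strand, H2-K1 is chr17:34000348-34000597 on the minus strand and H2-D1 is chr17:35262844-35263093 on the plus strand. The stretch between the RefSeq starts of Psmb9 and Tap1 is chr17:34187331-34187555, written in the direction of Tap1. By the GENCODE positions given above, which differ from the RefSeq starts, this last stretch lies inside Psmb9 and the H2-D1 stretch inside H2-D1.
B2m: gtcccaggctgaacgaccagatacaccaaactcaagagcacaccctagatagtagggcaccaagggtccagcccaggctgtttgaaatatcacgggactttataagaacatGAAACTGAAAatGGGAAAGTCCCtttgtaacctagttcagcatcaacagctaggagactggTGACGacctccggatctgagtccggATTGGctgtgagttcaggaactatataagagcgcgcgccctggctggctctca
H2-K1: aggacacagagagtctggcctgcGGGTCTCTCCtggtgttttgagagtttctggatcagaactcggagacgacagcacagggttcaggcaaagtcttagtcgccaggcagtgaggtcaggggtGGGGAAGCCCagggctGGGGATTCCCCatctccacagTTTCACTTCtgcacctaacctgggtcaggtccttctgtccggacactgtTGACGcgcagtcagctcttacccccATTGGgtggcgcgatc
H2-D1: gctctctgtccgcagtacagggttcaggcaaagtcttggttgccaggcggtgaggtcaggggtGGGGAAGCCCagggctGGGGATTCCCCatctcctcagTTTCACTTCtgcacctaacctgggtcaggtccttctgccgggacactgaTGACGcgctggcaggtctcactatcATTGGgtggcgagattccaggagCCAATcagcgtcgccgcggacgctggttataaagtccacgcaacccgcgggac
Tap1 and Psmb9: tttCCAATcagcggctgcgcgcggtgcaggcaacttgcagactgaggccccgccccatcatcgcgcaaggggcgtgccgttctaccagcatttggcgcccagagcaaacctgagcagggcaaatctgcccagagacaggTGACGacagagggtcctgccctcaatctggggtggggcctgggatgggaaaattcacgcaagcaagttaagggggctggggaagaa

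The H2-K1 and H2-D1 stretches were alike, with 167 identical bases of 190 aligned (87.9%), and both held kappa B, short ISRE, CRE and CCAAT letters in that order. Within the stretches shown, H2-K1 had a further kappa B match upstream (-227) and H2-D1 a further CCAAT box (-53). H2-K1 also held a second CCAAT box past its start (position 9), outside its stretch. The CRE core began at -41 in H2-K1 and at -101 in H2-D1. The stretches are thus offset, and each lacks bases that the other shows. In B2m the kappa B letters followed an ISRE core that began at position -139 from the start, and a CRE core (-78) and a CCAAT box in reverse (-53) came after them. Over the whole 300-base windows, the ISRE core was present in B2m and H2-T23, against 3.99% of all 27025 genes with such windows. The shorter ISRE form was in H2-K1 and H2-D1 (8.68% of all genes), and the kappa B letters in B2m, H2-K1 and H2-D1 (29.8%). The CRE core was found in 5 of the 8 genes (23% of all genes), the CCAAT box in 7 of the 8, all but Psmb8 (41.1%), and the GAS element in Psmb8 alone of the 8 (9.55%). Tap1 and Psmb9 each count here for the same CRE and CCAAT bases of their shared stretch. Matches of such short letter strings are a description and not evidence of binding.

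All 10 genes were higher in CPZ than in CTL brains, and 3 of them, B2m, H2-K1 and H2-D1, were still higher in RCV than in CTL. The members' summed share of all counts was 0.0140% to 0.0176% in CTL, 0.0413% to 0.0642% in CPZ and 0.0214% to 0.0317% in RCV libraries, so the 3 groups did not overlap. Library totals were 4605100 to 8197289 estimated counts. In bulk tissue, more cells of a type and more RNA per cell cannot be told apart.

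**Figure D1:**
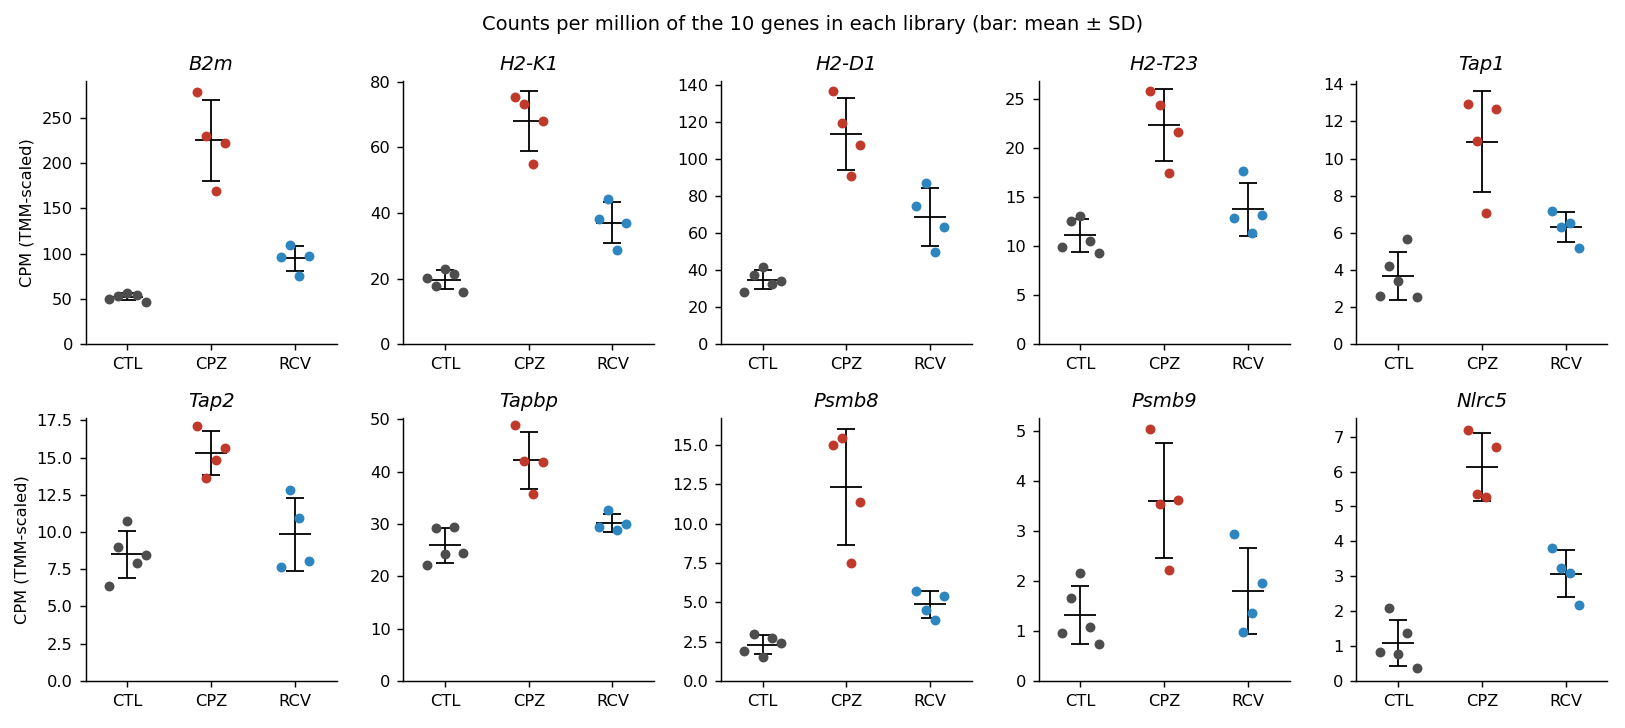
CPM (counts scaled to library size with TMM factors) of each of the 10 genes in each library, with 1 point per library and the mean ± SD per group (CTL n = 5, CPZ n = 4, RCV n = 4; each vertical axis starts at 0). In each of the 10 panels every CPZ point lies above every CTL point, and the mean of the RCV points lies between the other 2 means, with overlap of RCV and CTL in 5 of the 10 genes.

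The light chain was the most abundant of the 10 per length and among those that differed most. B2m was at 49.8, 53.6, 56.7, 54.6 and 47.1 CPM in CTL replicates 1 to 5. It was at 279, 230.5, 169 and 222 CPM in CPZ replicates 1 to 4, and at 96.2, 109, 75.6 and 98.01 CPM in RCV replicates 1 to 4. The 3 groups did not overlap, and CPZ replicate 3 was the lowest of its group. The CPZ difference was 4.30-fold (log2 fold change 2.10, SE 0.13, Benjamini-Hochberg adjusted p = 2.39e-07 in the quasi-likelihood test of edgeR), and RCV was 1.81-fold above CTL (log2 fold change 0.86, SE 0.13, edgeR adjusted p = 0.00902).

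The classical heavy chains followed. H2-K1, which encodes the K heavy chain, had 20.3, 17.8, 23.1, 21.6 and 15.9 CPM in CTL, 75.5, 73.4, 55.1 and 68.2 CPM in CPZ, and 38.1, 44.2, 28.9 and 37.1 CPM in RCV libraries. H2-D1, the D heavy chain, had 28.1, 37.2, 41.8, 32.6 and 33.9 CPM in CTL, 137, 119, 90.7 and 108 CPM in CPZ, and 74.5, 87.1, 49.8 and 63.3 CPM in RCV libraries. For both genes the RCV libraries sat between CTL and CPZ without touching either, RCV replicate 3 being the lowest and RCV replicate 2 the highest of the group. In CPZ, H2-K1 was 3.44-fold (log2 fold change 1.78, SE 0.13, edgeR adjusted p = 4.89e-07) and H2-D1 3.27-fold higher (log2 fold change 1.71, SE 0.16, edgeR adjusted p = 9.30e-06). In RCV, H2-K1 was 1.88-fold (edgeR adjusted p = 0.00650) and H2-D1 1.99-fold above CTL (edgeR adjusted p = 0.0224). On the TPM scale H2-K1 of RCV replicate 3 was at 49.5, inside the CTL range of 39.4 to 50.9, and limma on log2(TPM + 1) did not call it in RCV (adjusted p = 0.188).

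H2-T23, the Qa-1 heavy chain recognised by receptors of natural killer cells, moved less. It ranged over 9.35 to 13.1 CPM in CTL and 17.5 to 25.8 CPM in CPZ, a 2.01-fold difference (edgeR adjusted p = 0.000170). In RCV it was at 12.9, 17.7, 11.3 and 13.2 CPM, where 3 of the 4 libraries lay within or next to the CTL range and RCV replicate 2 passed the lowest CPZ value (edgeR adjusted p = 0.83 against CTL).

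Both subunits of the peptide transporter were higher in CPZ. Tap1 was at 2.58, 4.20, 3.38, 5.66 and 2.57 CPM in CTL, 12.96, 10.9, 7.08 and 12.7 CPM in CPZ and 7.18, 6.32, 6.54 and 5.20 CPM in RCV libraries. The CPZ libraries all exceeded CTL (2.95-fold, edgeR adjusted p = 0.000186), while RCV overlapped CTL through CTL replicate 4 and RCV replicate 4 (fitted ratio 1.72, edgeR adjusted p = 0.344). Tap2 ranged over 6.39 to 10.8 CPM in CTL, 13.6 to 17.1 CPM in CPZ and 7.62 to 12.8 CPM in RCV, and was 1.80-fold higher in CPZ (edgeR adjusted p = 0.00211). The difference between Tap1 and Tap2 in their response was not tested. Tapbp, the tapasin gene, had the smallest CPZ difference of the 10, at 1.63-fold (22.2 to 29.5 CPM in CTL, 35.8 to 49.0 CPM in CPZ, edgeR adjusted p = 0.000145), and 28.9 to 32.7 CPM in RCV.

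The immunoproteasome subunits and Nlrc5 had the fewest counts of the set in CTL and included the largest fold changes. Psmb8 gave 14, 20, 10, 18 and 13 counts in CTL, 104, 127, 54 and 88 counts in CPZ and 39, 28, 20 and 25 counts in RCV libraries. Scaled to library size it was 5.30-fold higher in CPZ (log2 fold change 2.41, SE 0.24, edgeR adjusted p = 4.42e-06) and stood at a fitted ratio of 2.11 in RCV, where all 4 libraries exceeded all CTL libraries in CPM (1.54 to 3.00 against 3.85 to 5.72) but the gene missed the threshold (edgeR adjusted p = 0.134). Psmb9 gave 7, 11, 14, 7 and 4 counts in CTL, 35, 29, 16 and 28 counts in CPZ and 20, 6, 7 and 9 counts in RCV libraries. Its CPZ difference was 2.70-fold (log2 fold change 1.43, edgeR adjusted p = 0.0137), and without CPZ replicate 1 the log2 fold change was 1.24 and the call was lost (edgeR adjusted p = 0.0651). Nlrc5 gave 6, 14, 5, 9 and 2 counts in CTL, 50, 44, 38 and 52 counts in CPZ and 26, 20, 16 and 10 counts in RCV libraries. It had the largest fold change of the 10 in CPZ, at 5.48-fold (log2 fold change 2.46, SE 0.31, edgeR adjusted p = 4.36e-05), and in RCV its fitted ratio to CTL was 2.80, with all 4 RCV above all 5 CTL libraries in CPM (edgeR adjusted p = 0.0913). At such counts single libraries are imprecise, and the Nlrc5 TPM of CPZ replicate 4 stood at 8.33 beside 2.36 to 3.40 in the other CPZ libraries although its count was like theirs.

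**Figure D2:**
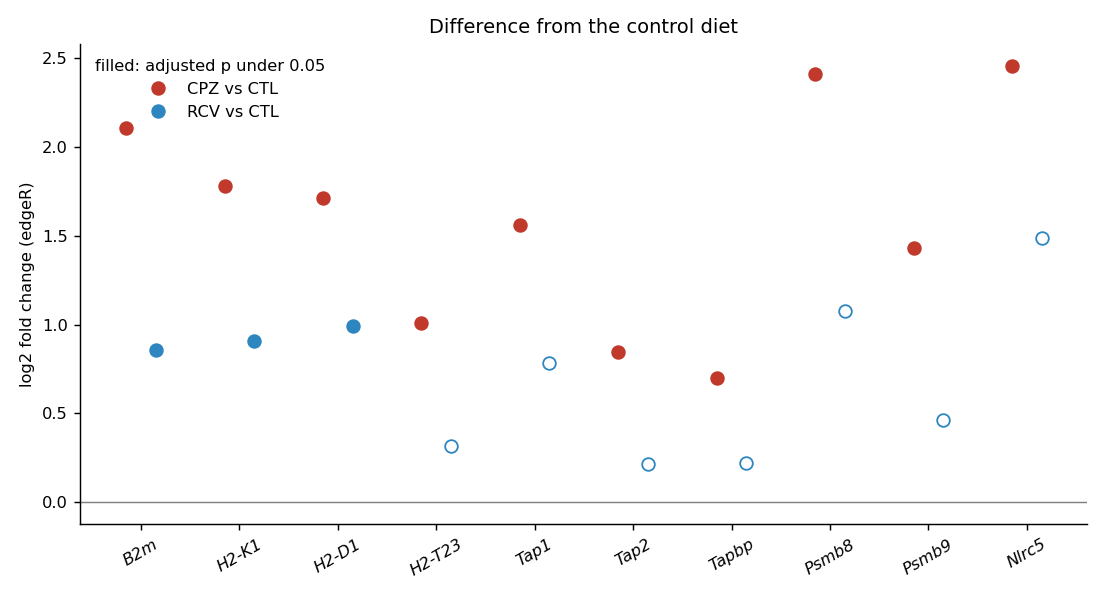
Log2 fold change of each of the 10 genes in CPZ (red) and RCV (blue) against the same 5 CTL libraries, from edgeR; filled points have an adjusted p under 0.05 over 14985 genes, open points do not. The 10 red points run from 0.70 (Tapbp) to 2.46 (Nlrc5) and are all filled, and the blue points run from 0.22 to 1.48, filled for B2m, H2-K1 and H2-D1.

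Across all genes tested, 7.66% passed as higher in CPZ and 2.5% as lower relative to CTL, and in 8.25% every CPZ library exceeded every CTL library. All 10 genes were called higher, and in all 10 the libraries did not overlap. Their median log2 fold change was 1.64, beside -0.02 over all genes tested. All 10 were called by DESeq2 and by limma-voom too.

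After 2 weeks of control diet, 0.36% of all genes passed as higher in RCV and 0.0133% as lower relative to CTL, and 3 of the 10 genes were called higher, none lower. In 2.21% of all genes every RCV library exceeded every CTL library, and this held for 5 of the 10 genes, Psmb8 and Nlrc5 joining the 3 called. The median log2 fold change of the 10 was 0.82. The DESeq2 Wald test called 0.834% of all genes higher and 5 of the 10, the same 5 genes, with adjusted p = 0.0481 for Psmb8 and 0.00890 for Nlrc5, and limma-voom called 3. The count fell to 1 gene, H2-K1, when RCV replicate 2 was left out, where B2m had an edgeR adjusted p of 0.0536 and H2-D1 of 0.0860. The H2-D1 call was also lost when CTL replicate 1, 4 or 5 or RCV replicate 1 was left out (edgeR adjusted p = 0.0641, 0.0788, 0.0651 and 0.0845), and without the filter on counts (0.0812). In the other direction, Nlrc5 passed without the filter on counts (edgeR adjusted p = 0.0404) and without CTL replicate 2 (0.0254), and Psmb8 without CPZ replicate 3 (edgeR adjusted p = 0.0394).

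Between CPZ and RCV, 5.13% of all genes passed as higher and 1.88% as lower in CPZ, and in 8.26% every CPZ library exceeded every RCV library. Of the 10 genes, 7 were called higher in CPZ and 7 did not overlap, but these were not the same 7. H2-T23 was called although its libraries overlapped, and Nlrc5 was not called although its libraries did not. B2m was 2.37-fold (edgeR adjusted p = 0.000251), Psmb8 2.51-fold (edgeR adjusted p = 0.00239), H2-K1 1.83-fold (edgeR adjusted p = 0.000828), H2-D1 1.65-fold, H2-T23 1.61-fold, Tap2 1.55-fold and Tapbp 1.39-fold higher in CPZ. The 3 genes not called were Tap1 (1.72-fold, edgeR adjusted p = 0.0576), Nlrc5 (1.96-fold, edgeR adjusted p = 0.0601) and Psmb9 (1.96-fold, edgeR adjusted p = 0.147). DESeq2 called 9 of the 10, with Tap1 (adjusted p = 0.0404) and Nlrc5 (0.0280) in addition, and limma-voom called 8, with Nlrc5 in addition (adjusted p = 0.0389). RCV replicates 3 and 4 held almost no choroid plexus transcript, with 10 and 8 counts of Ttr against 2667 to 16274 in the other libraries, and without them 3 genes were called. In that fit, chosen after the data were seen and with only 2 RCV libraries, the log2 fold changes of the 4 genes that lost their call were 0.50 for H2-D1 (0.72 with all libraries), 0.56 for H2-T23 (0.69), 0.60 for Tap2 (0.63) and 0.45 for Tapbp (0.48), with edgeR adjusted p of 0.130, 0.133, 0.181 and 0.101.

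Since the CPZ and RCV comparisons use the same CTL libraries, the RCV level was placed on the way from CTL to CPZ for each gene as a description. On the log2-CPM scale, where 0 is the CTL mean and 1 the CPZ mean, the share present in RCV was 0.60 ± 0.13 for Nlrc5, 0.57 ± 0.20 for H2-D1, 0.52 ± 0.12 for Tap1, 0.51 ± 0.14 for H2-K1, 0.45 ± 0.11 for Psmb8 and 0.41 ± 0.11 for B2m (SD, n = 4). It was lower for Tapbp, at 0.33 ± 0.11. For H2-T23, at 0.30 ± 0.27, Psmb9, at 0.28 ± 0.45, and Tap2, at 0.23 ± 0.41, it was lower and more scattered. The median of the 10 was 0.43. On the linear CPM scale it was 0.26, because a share on a log scale weighs low levels more. Neighbours in this order lay within their spread.

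**Figure D3:**
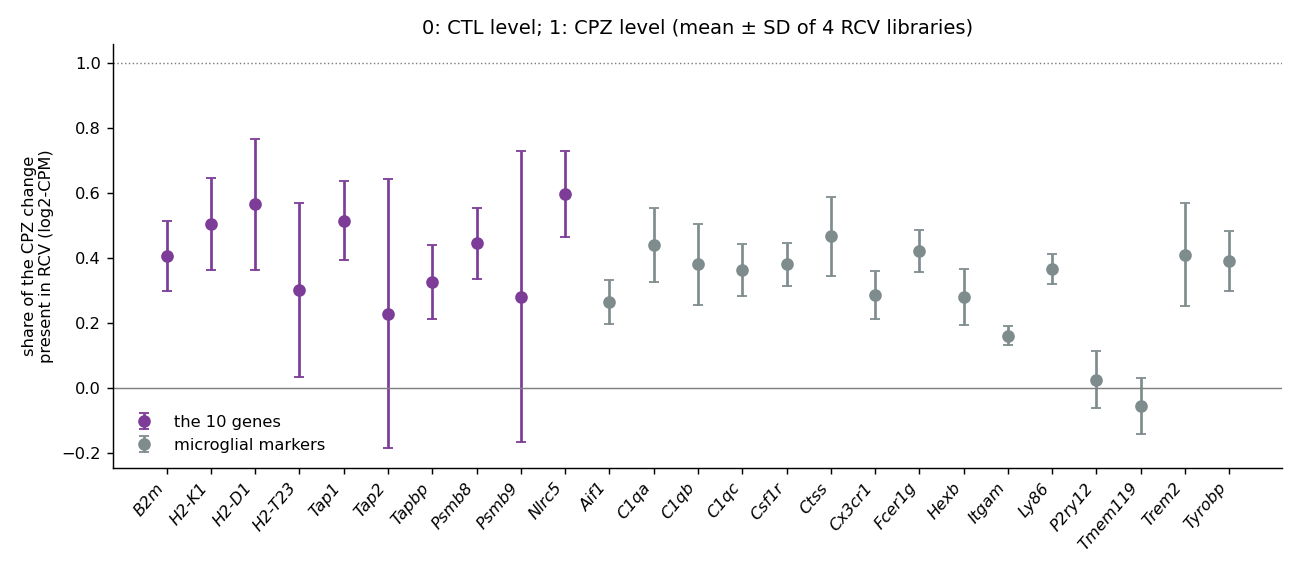
Share of the CPZ change present in RCV on the log2-CPM scale for the 10 genes (purple) and 15 microglial markers (grey), where 0 is the mean CTL level and 1 the mean CPZ level; points and bars are the mean ± SD of the 4 RCV libraries. The 10 genes lie between 0.23 and 0.60, and the microglial markers between -0.05 (Tmem119) and 0.47 (Ctss).

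Microglial markers moved with the 10 genes. The summed CPM of 15 markers was 421 to 504 in CTL, 1507 to 3206 in CPZ and 649 to 891 in RCV libraries, and CPZ replicate 3 was the lowest CPZ library for these as it was for the share of counts taken by the 10 genes. All 15 markers passed as higher in CPZ against CTL and against RCV. Between RCV and CTL 1 passed, Ctss (log2 fold change 1.24, edgeR adjusted p = 0.0284), and 10 by DESeq2. The homeostatic markers P2ry12 and Tmem119 were near the CTL level in RCV (log2 fold changes 0.01 and -0.06, edgeR adjusted p = 0.999 and 0.998), and their shares were 0.03 ± 0.09 and -0.05 ± 0.09. Those of C1qa, a complement gene, and Ctss, a lysosomal protease that works in class II presentation, were 0.44 ± 0.11 and 0.47 ± 0.12. The median share of the 15 markers was 0.37 on the log2-CPM scale beside 0.43 for the 10 genes, 0.158 beside 0.261 on the linear CPM scale, and 0.158 beside 0.306 in TPM. The part of microglial number in the class I values was not tested.

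In CPZ against CTL, the tested markers of endothelial cells and of T and NK cells moved less than the microglial markers. The summed CPM of 10 endothelial markers was 315 to 363 in CTL, 296 to 323 in CPZ and 297 to 319 in RCV libraries, and none of the 10 was called between CPZ and CTL in edgeR (2 at an unadjusted p under 0.05, 0 by DESeq2 and limma-voom). Cldn5, a tight junction gene, was lower in RCV than in CTL (log2 fold change -0.68, edgeR adjusted p = 0.0263). Of 13 markers of T and NK cells, 2 passed the count filter and none was called in any comparison by edgeR, DESeq2 or limma-voom (0 at an unadjusted p under 0.05). Their summed CPM was 3.82 to 25.1 in CTL, 9.55 to 19.4 in CPZ and 2.502 to 23.6 in RCV libraries, most of it from Cd4 and Trbc2. The defining T cell gene Cd3e gave 0 to 2 counts in every library. Cd8a, a subunit of the class I coreceptor of cytotoxic T cells, gave at most 2 counts, and none of the 11 receptors for class I in the count table passed the filter. Astrocyte markers also moved, 4 of 6 being higher in CPZ against CTL and 2 of 6 in RCV, with log2 fold changes of 2.43 and 1.80 for Gfap, the filament gene of reactive astrocytes. All 7 markers of mature oligodendrocytes were lower in CPZ, and none was called in RCV against CTL (0 at an unadjusted p under 0.05, 0 by DESeq2 and limma-voom). The part of astrocytes in the class I values was not tested.

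Per length, the order of the genes differed little between groups. In CTL, B2m was at 154 ± 10.3 TPM, H2-K1 at 46.4 ± 4.38, H2-D1 at 39.2 ± 5.74, Tapbp at 21.6 ± 2.49 and H2-T23 at 16.7 ± 2.501 TPM (SD, n = 5). Below them came Tap2 at 7.47 ± 1.69, Psmb8 at 5.01 ± 1.08, Tap1 at 3.10 ± 0.97, Psmb9 at 2.85 ± 0.76 and Nlrc5 at 1.08 ± 0.65 TPM. The libraries of H2-K1 and H2-D1, of Tapbp and H2-T23, and of each neighbour from Tap2 to Psmb9 overlapped, whereas B2m stood clear of H2-K1, H2-D1 of Tapbp and H2-T23 of Tap2. In CPZ the order was the same except that Psmb8 passed Tap2, at 30.1 ± 9.59 against 11.5 ± 1.11 TPM (SD, n = 4) with no overlap, and B2m reached 655 ± 130.1 TPM. In RCV, Psmb8 was again above Tap2 by the mean, at 11.5 ± 2.40 against 7.73 ± 1.93 TPM, with overlapping libraries.

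The light chain was higher relative to the classical heavy chains in CPZ libraries. The ratio of B2m to the sum of H2-K1 and H2-D1 in TPM was 1.80 ± 0.121 in CTL (n = 5), 2.33 ± 0.0867 in CPZ (n = 4) and 1.76 ± 0.296 in RCV libraries (n = 4, SD). The 4 CPZ libraries, at 2.25 to 2.42, lay above all others, the highest of which was RCV replicate 3 at 2.12. The ratio of H2-K1 to H2-D1 was 1.20 ± 0.205, 1.28 ± 0.0548 and 1.17 ± 0.189 in the 3 groups, which overlapped. These ratios were looked at after the levels were known and were not tested.

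Within the proteasome, the exchange of subunits can be followed as the ratio of each inducible subunit to its constitutive partner in TPM. Psmb8 was at 3.06% ± 0.714 of Psmb5 in CTL (SD, n = 5), 18.6% ± 5.04 in CPZ (n = 4) and 7.45% ± 0.995 in RCV (n = 4). The 3 groups did not overlap, with CTL at 1.96% to 3.85%, RCV at 6.69% to 8.78% and CPZ at 11.8% to 23.2%. The ratio was 6.05-fold higher in CPZ and 2.48-fold higher in RCV than in CTL (exact two-sided permutation test, p = 0.00794 for each, the smallest this design allows, and 0.0238 adjusted over 9 tests). The step from CPZ to RCV also reached the smallest p possible for 4 against 4 libraries (exact permutation p = 0.0286, adjusted p = 0.0643).

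Psmb9 was at 1.49% ± 0.471 of Psmb6 in CTL, 3.58% ± 1.32 in CPZ and 2.10% ± 0.632 in RCV libraries, 2.37-fold higher in CPZ than in CTL (exact permutation p = 0.00794, adjusted p = 0.0238). The RCV ratio overlapped both other groups (exact permutation p = 0.167 against CTL, adjusted p = 0.214). Psmb10, the third inducible subunit, was far closer to its partner Psmb7 already in CTL, at 38.0% ± 3.97, and stood at 43.3% ± 4.46 in CPZ and 40.7% ± 11.4 in RCV libraries (exact permutation p = 0.111 for CPZ against CTL, adjusted p = 0.171). Its own CPZ log2 fold change was 0.18 (edgeR adjusted p = 0.290). The constitutive Psmb5, Psmb6 and Psmb7 had CPZ log2 fold changes of -0.03, -0.07 and -0.04 and were not called. With any 1 CTL or CPZ library left out, the adjusted exact p of the Psmb8 and Psmb9 ratios in CPZ no longer passed the threshold, and that of the Psmb8 ratio in RCV did not with any 1 of the 13 libraries left out. Without a library of the comparison, fewer arrangements remain and the smallest possible p against CTL is larger. Such a loss alone therefore does not show that a ratio rests on 1 library. Counts of Psmb5 were not whole in 7 of 13 libraries.

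**Figure D4:**
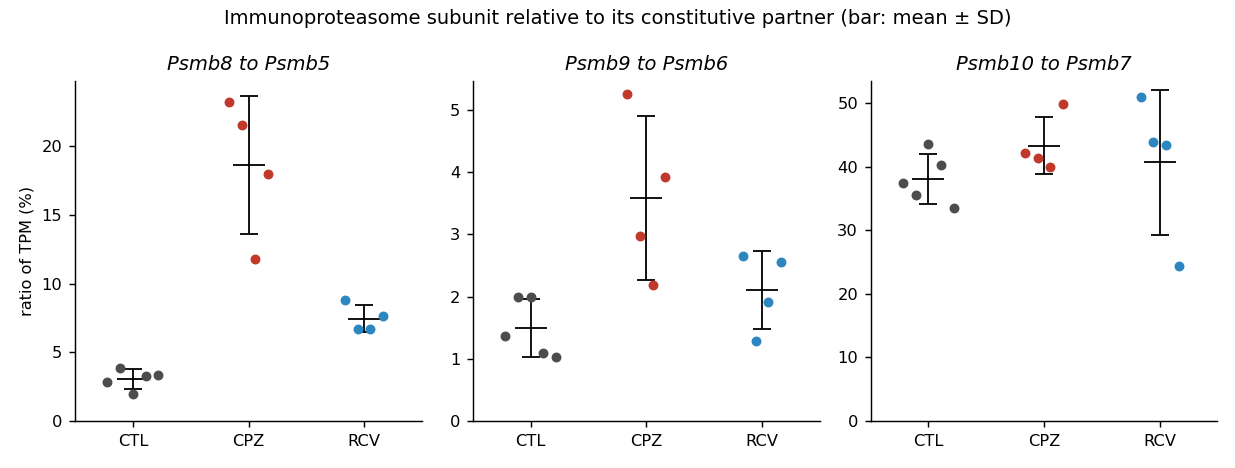
Ratio of each inducible proteasome subunit to its constitutive partner in TPM, in percent, with 1 point per library and the mean ± SD per group (CTL n = 5, CPZ n = 4, RCV n = 4; axes start at 0). Psmb8 relative to Psmb5 separates the 3 groups, Psmb9 relative to Psmb6 separates CTL and CPZ, and Psmb10 relative to Psmb7 overlaps among all 3, with 1 RCV library at 24.4%.

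Other genes of the pathway took part unequally. Of 47 further genes that passed the filter, 15 passed as higher and 1 as lower in CPZ relative to CTL (7.66% and 2.5% of all genes tested). In RCV, 2 passed as higher relative to CTL (0.36% of all genes), and 9 were higher in CPZ than in RCV (5.13%). The median log2 fold change of the 47 genes in CPZ was 0.20. Among 12 other class I and class I-like chains, 6 were called higher in CPZ, namely H2-Q7 (log2 fold change 2.05), H2-Q6 (2.01), H2-Q4 (1.71), H2-T24 (1.40), Hfe (1.12) and H2-T22 (0.45). Hfe, a class I-like chain of iron regulation that also binds β2-microglobulin, was at 8.65 to 13.5 CPM in CPZ, 4.22 to 6.15 CPM in CTL and 3.66 to 6.16 CPM in RCV, where 3 libraries lay below all CTL libraries and RCV replicate 2 level with the highest (edgeR adjusted p = 0.976). For H2-Q6 and H2-Q7, of the Qa-2 group, RCV and CPZ libraries overlapped. H2-Q7 had 2.07 to 3.89 CPM in CPZ and 2.82 to 3.40 CPM in RCV against 0.154 to 1.36 CPM in CTL (RCV against CTL log2 fold change 1.95, edgeR adjusted p = 0.0493) and a CPZ against RCV log2 fold change of 0.10 (edgeR adjusted p = 0.924). Of H2-Q6, RCV replicates 1 and 2 held 3.96 and 3.73 CPM and RCV replicates 3 and 4 held 0.770 and 1.95 CPM, beside 2.58 to 3.05 CPM in CPZ (RCV against CTL log2 fold change 1.95, edgeR adjusted p = 0.0724). H2-Q4 was called in RCV too (log2 fold change 1.02, edgeR adjusted p = 0.0331).

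H2-Q2 went the other way, with 3 to 4 counts in every CPZ library and 7 to 34 in CTL libraries (log2 fold change -2.39, edgeR adjusted p = 0.00292). The counts of H2-Q4, H2-Q6, H2-Q7 and H2-T22 were not whole in all 13 libraries and those of H2-Q2 in 9, so how reads were shared among these near-identical genes bears on each of their values. Of 5 loading chaperones and trimming enzymes, the peptide-trimming Erap1 (log2 fold change 0.84) and the thiol oxidoreductase Pdia3 (0.27) were called higher in CPZ. Calr, Canx and Tapbpl were not called by edgeR, while Calr was called by DESeq2 (adjusted p = 0.0354) but not by limma-voom (adjusted p = 0.0616). Of 8 proteasome genes, Psme2, a subunit of the PA28 activator, was called (0.53, with counts not whole in 13 of 13 libraries). Its partner Psme1 was not called by edgeR (0.38, edgeR adjusted p = 0.0545). DESeq2 (adjusted p = 0.0466) and limma-voom (adjusted p = 0.0415) did call Psme1. The share of all genes called higher in CPZ was 7.66%, and with 5 and 8 genes these few calls say little about either list.

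**Figure D5:**
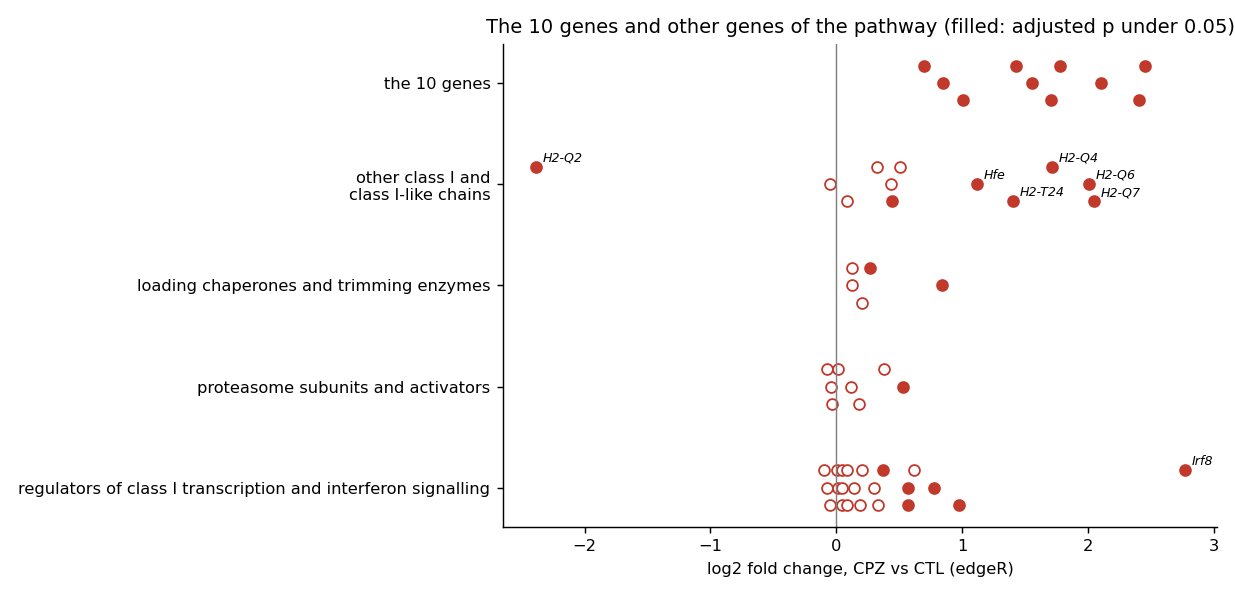
Log2 fold change between CPZ and CTL (edgeR) of the 10 genes and of the other tested genes of 4 lists, 1 point per gene (vertical scatter within a row has no meaning); filled points have an adjusted p under 0.05. The 10 genes all lie at 0.70 or above, while the proteasome and regulator rows have medians of 0.07 and 0.16, with Irf8 at 2.77 far to the right, and H2-Q2 lies at -2.39.

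Beside 7.66% of all genes tested, 6 of 22 regulators of class I transcription and interferon signalling were called higher in CPZ. They were Irf8, a myeloid transcription factor (log2 fold change 2.77), the interferon-γ receptor chain Ifngr1 (0.98), Irf9 (0.78), the type I interferon receptor chain Ifnar2 (0.57), Nfkb1 (0.57) and Nfya (0.38). Irf1, a factor that binds ISRE sequences, was not called (CPZ log2 fold change 0.62, edgeR adjusted p = 0.0849). The components of the RFX complex that works with Nlrc5, Rfx5, Rfxank and Rfxap, had CPZ log2 fold changes of 0.01, -0.05 and -0.10. None of 10 interferon genes passed the filter: Ifnb1 gave 0 counts in all 13 libraries and Ifng 2 counts in CPZ replicate 1 and 0 elsewhere, which is too few for a comparison.

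The genes whose pattern over the 13 libraries was most like the mean of the 10 were named by the root mean square difference of CTL-centred log2-CPM among the 14133 genes whose log2-CPM averaged 1 or more. They were Msn (0.161), which encodes the membrane-cytoskeleton linker moesin, Ddx58 (0.174), the RNA sensor RIG-I, Csf1r (0.179), the receptor on which microglia depend, Gbp2 (0.184), an interferon-inducible GTPase, and Itgb5 (0.191), an integrin chain. Tap1 (0.209), H2-K1 (0.227) and H2-D1 (0.228) were the members closest to the mean of the 10, of which they are part, and Nlrc5 (0.669) was the farthest.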

How the data were processed

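The authors deposited, per gene and library, estimated counts and TPM values (per the labels, tools of the processing were STAR and RSEM on mm10, with no version given) and a gene annotation. The paper's methods name the RNASequest pipeline for these data. Of the estimated counts 4.45% were not whole, and they were rounded before testing. The 92 rows without a gene name (0 counts) were left out.

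Genes were filtered with filterByExpr, normalised with TMM factors and tested in edgeR 4.0.16 (R 4.3.3) by its quasi-likelihood F test with robust dispersion, in one fit of all 13 libraries, adjusted over 14985 genes at 0.05. Log2-CPM used a prior count of 2. SE is the log2 fold change divided by the root of F. For proteasome ratios, the difference of mean log2 TPM ratios was set against every rearrangement of the libraries (exact permutation, two-sided). Alternatives used limma 3.58.1, DESeq2 1.42.0 and other filters, scalings and samples. The test was checked on simulated counts.

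The members and lists were chosen with earlier results of these data known. Text names the 10 members, called genes of the pathway lists (up to 5 largest per list and contrast), Psmb5, Psmb6, Psmb7, Psmb10, Irf1, Cd8a, Ifng, Ifnb1, the 5 most alike genes and markers where needed. Cldn5, H2-T22, Ifnar2, Nfkb1, Nfya, Psme1, Calr, Canx, Tapbpl, Rfx5, Rfxank and Rfxap were named in addition, after their values were seen, to break down counts. 1 gene of the regulator list is not reported here and was left out of its counts. Labels number the replicates alike in each group, but same-numbered libraries did not deviate together (correlations -0.199 to 0.136 over 12 pairs). P values set the difference between groups against the spread between libraries.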

Additional observations from a re-analysis of the deposited data

How the results depend on the processing

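No log2 fold change of the 10 genes changed sign under any alternative run. Of these values, 682 kept their side of the threshold, 43 lost their call and 19 gained one. Between RCV and CTL, 5 of the 10 genes were called with the DESeq2 Wald test and 0 with limma on log2(TPM + 1) without a filter, where 3 were called between CPZ and RCV. Between CPZ and RCV, where edgeR called 7, DESeq2, scaling by library totals and no filter on counts each gave 9, and limma-voom and a fit of the 2 groups alone gave 8. Leaving out RCV replicates 3 and 4, chosen after the data were seen, left 3 called between CPZ and RCV. With the replicate number as a block, 9 genes were called between CPZ and CTL, 2 between RCV and CTL and 6 between CPZ and RCV. Psmb9, H2-D1 and Tap2 lost their calls there, 1 in each of these comparisons in that order. Their log2 fold changes were 1.27, 0.96 and 0.65 with the block, beside 1.43, 0.99 and 0.63 without it. The labels do not say whether the numbers pair animals, and the meaning of the lost calls was not tested. Other pathway genes called between RCV and CTL numbered 2 with edgeR (13 at an unadjusted p under 0.05), 4 with DESeq2 and 0 with limma-voom. Requiring 10 counts in every library removed Psmb9 and Nlrc5 and left 8 called in CPZ. The Tap2 call between CPZ and CTL was lost with limma on TPM (adjusted p = 0.0784 with a pseudocount of 1), and those of Psmb9 and Nlrc5 too when no filter was used (0.0618 and 0.0575).

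Leaving out single libraries, the number called was 9 to 10 in CPZ against CTL, 1 to 4 in RCV against CTL (lowest without RCV replicate 2) and 5 to 8 in CPZ against RCV (lowest without CPZ replicate 1 or 2). Tap2 lost its call between CPZ and RCV without any of CPZ replicates 1 to 4 or RCV replicates 1, 3 and 4, with adjusted p up to 0.137. The log2 ratio of Psmb8 to Psmb5 ranged over 2.45 to 2.80 in CPZ and 1.16 to 1.40 in RCV against CTL, and that of Psmb9 to Psmb6 over 1.03 to 1.46 in CPZ. Leaving out a library allows fewer arrangements in the exact tests of the comparisons that hold it. The Psmb8 ratio in RCV against CTL lost the threshold without a CPZ library too. There its own arrangements were unchanged and only the adjustment over 9 tests differed. The ratio of Psmb10 to Psmb7 changed sign, at -0.0747 to 0.28 for RCV against CTL (negative without RCV replicate 1 or 2) and -0.0925 to 0.26 for CPZ against RCV (negative without RCV replicate 4). Shares of the CPZ change in RCV were lower for each gene in linear CPM than in log2-CPM, with Nlrc5 at 0.39. In TPM Nlrc5 was at 0.40. Tapbp (0.44) and Psmb9 (0.31) were in TPM above their log2-CPM shares of 0.33 and 0.28. Psmb8, Psmb9 and Nlrc5, at 2 to 20 counts per CTL library, are limited by depth.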
